A study of Rattus norvegicus with 6 samples.

Results

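The DEAD-box and DEAH-box RNA helicases, the genes whose symbols begin with Ddx or Dhx and a number, were described in neonatal rat ventricular myocytes after transfection with an siRNA against uc.323. They were chosen by gene symbol, leaving out Ddx58 and Dhx58, and the family was proposed with its si-uc.323 against si-scramble values in view. Their fold changes and calls in that contrast are therefore a description and not a test of the family. The symbols took 42 probes of 38 genes, out of 15168 named genes on the array. Of the 38 genes, 37 passed the background filter (29 DEAD-box and 9 DEAH-box genes before it, 28 and 9 after it). The exception was Ddx4, the germ cell helicase Vasa, which was not well above background on any of the 6 arrays. All 37 others were well above background on all 6 arrays, so none passed the filter through 1 group alone. Each gene is represented by its brightest probe.

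The cells were primary ventricular myocytes of male Sprague-Dawley rats 1 to 2 days old, preplated to remove fibroblasts and grown with bromodeoxyuridine for 36 h. The tested cultures then received 50 nmol/L si-uc.323 and the control cultures 50 nmol/L scrambled siRNA (si-scramble), each for 3 h in serum-free medium. Both groups were starved of serum for a further 21 h and collected at 24 h, with 3 independent experiments per group and 1 single-colour array per experiment. uc.323 is a transcribed ultraconserved region, a non-coding RNA copied from a genome stretch shared without change by several mammals. Its own level was not analysed here, so the knockdown was not checked. The comparison asks which transcripts differ between si-uc.323 and si-scramble in these serum-starved heart muscle cells. The siRNA, printed to identify the agent, has 19 bases before its 2 deoxythymidines.
si-uc.323: gguaaguaauuucagcaau

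RNA helicases of these families use ATP to unwind short RNA duplexes or to strip proteins from RNA. DEAD-box members act locally and often as clamps on RNA, whereas DEAH-box members move along a strand and are commonly switched on by G-patch cofactor proteins. Between them they drive spliceosome assembly and release, ribosomal RNA maturation, mRNA export, storage and decay. Heart muscle growth depends on ribosome production and splicing, in which many of these enzymes take part.

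Levels are given as log2 intensity relative to the 75th percentile of the same array, and a fold change is the si-uc.323 mean minus the si-scramble mean on that scale. The si-uc.323 arrays differed more among themselves (correlation 0.987 to 0.992 across features) than the si-scramble arrays (0.993 to 0.996). Slide 2 carried si-uc.323 replicates 2 and 3, with 78.2% and 86.5% of probes well above background, and slide 1 the 4 other arrays, with 71.8% to 73.9%. Cardiomyocyte markers had 0 of 7 members called higher and 1 lower (Actc1), with summed linear levels of 175 to 198 in si-uc.323 against 205 to 222 in si-scramble. Actc1 (log2 fold change -0.63), Ryr2 (-0.46), Myl3 (-0.34) and Tnni3 (-0.34) were lower without overlap. Tnnt2 (0.01), Myh6 (0.05) and Myl2 (0.01) had overlapping groups. Proliferation markers had 2 of 4 called higher, Ccnb1 and Cdk1 (sums 8.21 to 8.88 against 5.89 to 6.40; Mki67 and Top2a not tested). Of the other lists, fibroblast markers had 1 of 8 called higher, Postn (sums 126 to 157 against 124 to 134). Of the erythroid genes Alas2 and Hbb, Hbb was called lower (log2 fold change -0.61, sums of both 0.592 to 0.659 against 0.855 to 1.09). No marker was called among 5 endothelial genes (5.52 to 8.56 against 11.0 to 12.4; Vwf not tested), 5 smooth muscle and pericyte genes (34.4 to 41.5 against 33.2 to 37.4) or 4 leukocyte genes (2.97 to 3.21 against 3.78 to 3.88; Cd3e and Itgam not tested). The endothelial sum came mostly from the brightest gene, Kdr (log2 fold change -0.76). Pecam1 (-0.30) and Cdh5 (-0.10) were also negative, but Tie1 (0.73) and Tek (0.46) were positive, Tie1 being near background in si-scramble. The leukocyte sum likewise came mostly from Cd68 (-0.41), while Ptprc (0.06), Csf1r (0.14) and Adgre1 (0.42) were positive. The part of slide, cell mixture and proliferation in the helicase values was not tested. In such bulk RNA, a changed share of a cell type and a changed level per cell cannot be told apart.

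Among the 37 helicases, 3 rose with si-uc.323, Ddx46, Ddx1 and Ddx27, by the limma fit over all features (Benjamini-Hochberg adjusted p below 0.05). Over all 11580 genes tested 6.14% were called, 3.26% higher and 2.88% lower. No helicase was called lower. At an unadjusted p under 0.05, 12 helicases were higher and 3 were lower, against 16.7% and 13.3% of all genes. In 12 helicases every si-uc.323 value lay above every si-scramble value, and in 3 every value lay below, where the same held for 20.1% and 19% of all genes. No helicase differed by 2-fold or more. The log2 fold changes ran from -0.43 (Dhx35) to 0.78 (Ddx46), 25 positive and 12 negative, with a median of 0.17 against 0.02 over all genes. These 3 calls depended on single arrays: the number called was 0 without si-scramble replicate 1, 2 or 3, 1 (Ddx27) when replicate 1 of si-uc.323 was left out, 11 (10 higher, 1 lower) when its replicate 2 was, and 0 when its replicate 3 was. The 11 were the 3 above together with Ddx18, Ddx20, Ddx28, Ddx39a, Ddx42, Ddx47 and Ddx50, all higher, and Dhx35, lower. The calls over all 11580 genes rose there too, to 1859. They numbered 451 without si-uc.323 replicate 1 and 292 without its replicate 3. Without si-scramble replicates 1, 2 and 3 they numbered 0, 12 and 0. At an unadjusted p under 0.05 the fits with 0 helicases called held 8, 8 and 7 helicases without si-scramble replicates 1, 2 and 3. Without si-uc.323 replicate 3 the fit held 11. The number of helicases called was also 0 with the slide as a block (4 at an unadjusted p under 0.05). Of all 11580 genes, 2380, 2412 and 2095 had an unadjusted p under 0.05 without si-scramble replicates 1, 2 and 3. There were 3078 without si-uc.323 replicate 3 and 1769 with the slide block.

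**Figure D1:**
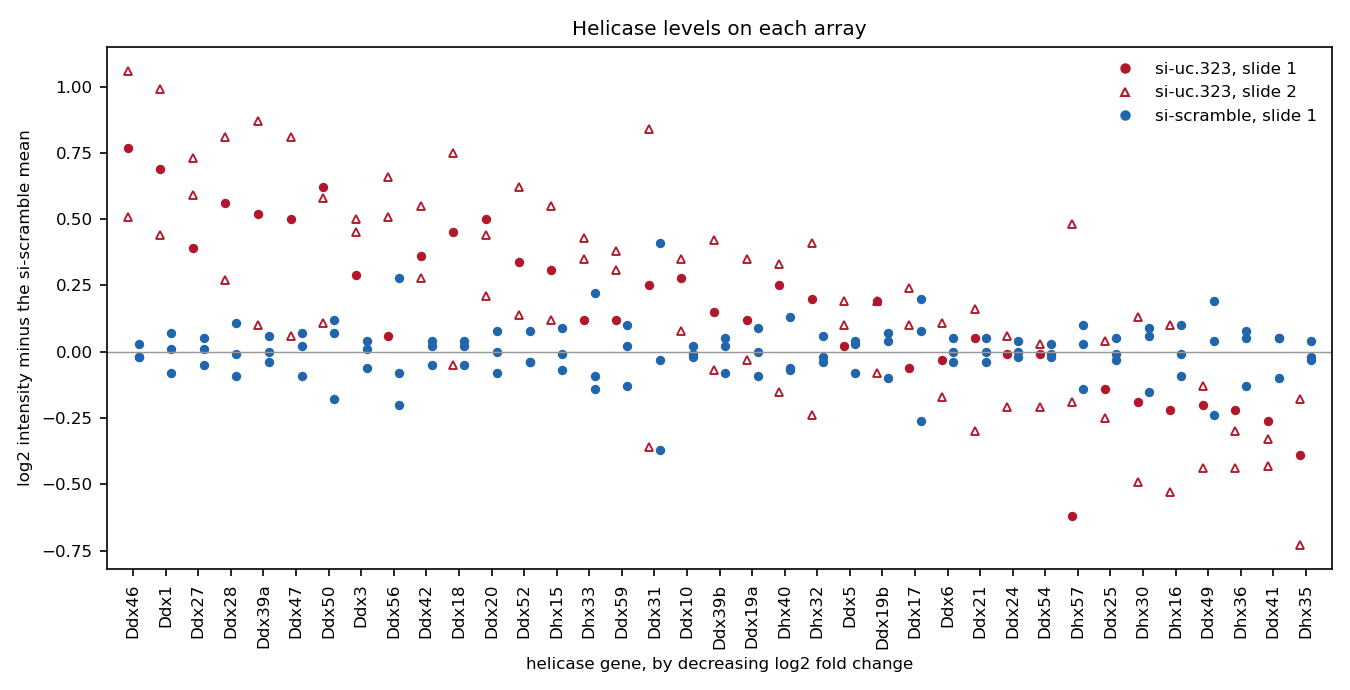
Log2 intensity of the 37 helicase genes on each array, minus the gene's si-scramble mean (vertical axis), with genes ordered by log2 fold change (horizontal axis); red marks are si-uc.323 arrays (filled circles slide 1, open triangles slide 2) and blue circles si-scramble arrays. The si-scramble values of most genes lie close to 0, and the si-uc.323 values are spread more widely, with all 3 above all si-scramble values in 12 genes and all 3 below in 3.

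Ddx46, the homologue of yeast Prp5 that helps the U2 particle onto the branch site of an intron, had the largest fold change of the family. Its level was -2.01, -2.27 and -1.72 in si-uc.323 replicates 1, 2 and 3, against -2.80, -2.75 and -2.80 in si-scramble replicates 1, 2 and 3. Every si-uc.323 array lay above every si-scramble array, with an SD of 0.27 over the si-uc.323 arrays and 0.03 over the si-scramble arrays. The log2 fold change was 0.78 ± 0.15 (SE, n = 3 and 3 arrays), or 1.72-fold, with an adjusted p of 0.0376 in the limma fit. Within slide 1, si-uc.323 replicate 1 was 0.78 above the si-scramble mean (adjusted p = 0.0650 in the limma fit of slide 1 alone, n = 1 and 3 arrays, the lone array being assumed to vary like the others).

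Ddx1, a subunit of the tRNA ligase complex that also travels in RNA transport granules, stood at 0.39, 0.14 and 0.69 in si-uc.323 and at -0.23, -0.38 and -0.29 in si-scramble. All si-uc.323 values were above the array's 75th percentile and all si-scramble values below it. The log2 fold change was 0.71 ± 0.16 (SE), or 1.63-fold, with an adjusted p of 0.0488, and replicate 1 on slide 1 differed by 0.69 (adjusted p = 0.0686 within slide 1, limma).

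Ddx27, a nucleolar helicase of ribosomal RNA processing, was measured by a probe printed in 10 spots and by another printed once. The brighter probe read -0.73, -0.53 and -0.39 in si-uc.323, against -1.07, -1.11 and -1.17 in si-scramble, with no overlap. Its log2 fold change was 0.57 ± 0.12 (SE), or 1.48-fold (adjusted p = 0.0474, limma). The less bright probe read -1.02, -1.01 and -0.70 in si-uc.323 against -1.11, -1.55 and -1.48 in si-scramble, a log2 difference of 0.47 in the same direction. On slide 1 alone the brighter probe differed by 0.39 (adjusted p = 0.106, limma). Ddx27 did not pass with a shift to equal array medians (0.47, adjusted p = 0.0568) or when its probes were averaged (0.52, adjusted p = 0.0658).

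**Figure D2:**
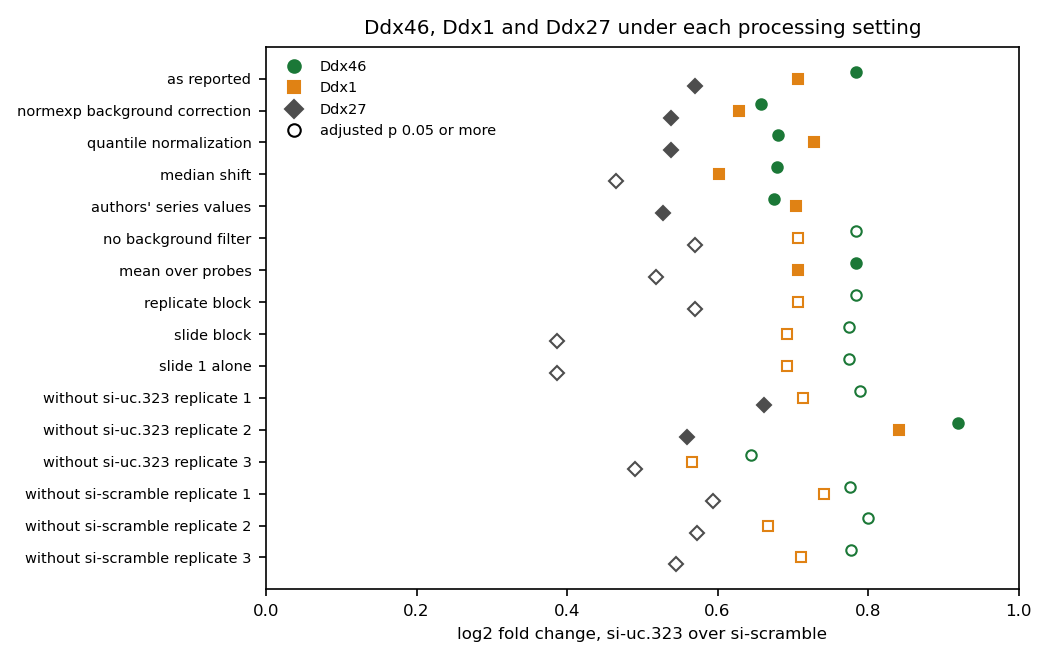
Log2 fold change of Ddx46, Ddx1 and Ddx27 (horizontal axis) under each processing setting (vertical axis); filled marks have an adjusted p under 0.05 and open marks do not. All values are positive, between 0.39 and 0.92. The marks of all 3 genes turn open without any 1 si-scramble array, without si-uc.323 replicate 3, with either block, on slide 1 alone and without the background filter. Those of Ddx46 and Ddx1 also turn open without si-uc.323 replicate 1, and that of Ddx27 with a median shift and with the mean over probes.

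The promoters of the 3 called genes are shown because only these helicases passed the threshold. Whether the 3 genes vary together was not tested. The sequences are those of RefSeq (build GRCr8, 250 bases before to 50 after the gene's start, 5′ to 3′ on the gene's strand). Ddx46 lies at chr17:8993554-8993853 on the minus strand, Ddx27 at chr3:176162970-176163269 on the plus strand and Ddx1 at chr6:41756187-41756486 on the minus strand. Capitals mark matches to 5 motifs, searched on either strand and in both orientations. They are the E-box, spelled CACGTG, and the CCAAT box, spelled as its name. The GC box was searched as GGGCGG. The core bound by ETS factors was searched as CCGGAAG, and the TATA box as TATAAA.
Ddx46: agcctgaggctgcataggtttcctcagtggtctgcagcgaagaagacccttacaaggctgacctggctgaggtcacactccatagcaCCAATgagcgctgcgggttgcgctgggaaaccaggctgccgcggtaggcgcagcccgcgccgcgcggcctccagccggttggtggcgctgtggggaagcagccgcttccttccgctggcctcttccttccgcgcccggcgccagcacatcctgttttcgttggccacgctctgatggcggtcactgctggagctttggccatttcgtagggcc
Ddx27: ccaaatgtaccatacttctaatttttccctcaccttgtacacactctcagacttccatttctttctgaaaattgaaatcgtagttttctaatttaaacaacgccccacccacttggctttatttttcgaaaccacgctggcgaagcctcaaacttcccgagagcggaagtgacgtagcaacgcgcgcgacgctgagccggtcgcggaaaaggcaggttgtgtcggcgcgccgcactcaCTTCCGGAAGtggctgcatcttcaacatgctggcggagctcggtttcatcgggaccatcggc
Ddx1: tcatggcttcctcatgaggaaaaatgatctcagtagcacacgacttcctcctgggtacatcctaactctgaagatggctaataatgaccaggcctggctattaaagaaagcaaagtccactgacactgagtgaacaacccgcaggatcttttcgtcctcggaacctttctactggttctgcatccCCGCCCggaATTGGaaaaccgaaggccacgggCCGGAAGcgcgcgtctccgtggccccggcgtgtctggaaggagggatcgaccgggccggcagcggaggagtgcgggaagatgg

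Ddx46 held a CCAAT box, Ddx27 a pair of overlapping ETS cores in opposite orientations, and Ddx1 a GC box, a CCAAT box and an ETS core, so no motif was common to all 3. Of the 38 helicases, 34 had a promoter in the RefSeq table. An ETS core stood in 14 of these 34 (41.2%), against 16.3% of the 9462 tested genes with a promoter and 8.75% of all 33469 promoters. A GC box stood in 22 (64.7%, against 57.5% and 33.1%), a CCAAT box in 17 (50%, against 38.3% and 37.5%) and an E-box in 7 (20.6%, against 8.88% and 6.42%). None of the 34 held a TATA box, against 8.75% of tested genes and 14.2% of all promoters. The median GC content was 57.8% in the helicase promoters and 60% in those of tested genes. Promoters with an ETS core belonged to helicases with a median log2 fold change of 0.20 (14 genes), and those without it to helicases with 0.15 (19 genes). The medians were 0.24 with a GC box (21 genes) and 0.03 without it (12 genes), 0.28 with a CCAAT box (16 genes) and 0.15 without it (17 genes), and 0.22 with an E-box (6 genes) and 0.17 without it (27 genes). These splits were not tested. Matches describe letters in these windows only.

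Splicing helicases had values in both directions. Of 9 measured members 1 was called, Ddx46, with 6 positive and 3 negative log2 fold changes and a median of 0.11. Ddx42, which binds the SF3B part of the human U2 particle, read -0.84, -0.92 and -0.65 in si-uc.323 against -1.16, -1.25 and -1.18 in si-scramble. These values did not overlap, and the log2 fold change of 0.39 ± 0.12 (SE) did not pass (adjusted p = 0.0885, limma). Dhx15, the homologue of yeast Prp43 that takes spent spliceosomes apart, was at 0.40, 0.21 and 0.64 in si-uc.323 against 0.02, 0.18 and 0.08 in si-scramble (log2 fold change 0.33 ± 0.14, adjusted p = 0.177, limma). Its lowest si-uc.323 value lay just above its highest si-scramble value.

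At the other end of the splicing list, Dhx35, found in the catalytic spliceosome, had the most negative value of the family. It read 0.39, 0.60 and 0.05 in si-uc.323, against 0.75, 0.82 and 0.76 in si-scramble, without overlap. The log2 fold change was -0.43 ± 0.16 (SE), 1.35-fold lower, with an adjusted p of 0.133 (limma). Without si-uc.323 replicate 2, the array nearest to the controls, it was -0.56 and passed (adjusted p = 0.0498, limma), and without replicate 3 it was -0.28 (adjusted p = 0.185).

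Ddx41, a spliceosome component that has also been described as a sensor of cytosolic DNA, was read by 3 probes that differed in sign. The brightest gave 0.88, 0.81 and 0.71 in si-uc.323 against 1.04, 1.19 and 1.19 in si-scramble, a log2 fold change of -0.34 ± 0.11 (SE, adjusted p = 0.109, limma). A probe of similar brightness gave 0.68, 0.70 and 0.48 against 0.90, 1.15 and 1.02, a difference of -0.40. The dimmest gave -2.57, -2.25 and -2.13 in si-uc.323 against -2.51, -2.40 and -2.50 in si-scramble, a difference of 0.15 with overlapping groups. The bright probes were thus lower with si-uc.323 on every array, and the dim probe was not.

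Dhx16, the homologue of yeast Prp2 that readies the spliceosome for its first step, had a log2 fold change of -0.22 ± 0.17 with overlapping groups. Ddx5 and Ddx17, a pair of paralogues that act in splicing and in microRNA processing, had values near 0. Ddx5 read 3.92, 4.09 and 4.0 in si-uc.323 against 3.93, 3.94 and 3.82 in si-scramble, and its unadjusted 95% interval was -0.15 to 0.36. Ddx17 had a log2 fold change of 0.09 (95% interval -0.28 to 0.45), and its sign turned under quantile normalization, a median shift, the authors' series values and the slide block, and without si-scramble replicate 1.

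**Figure D3:**
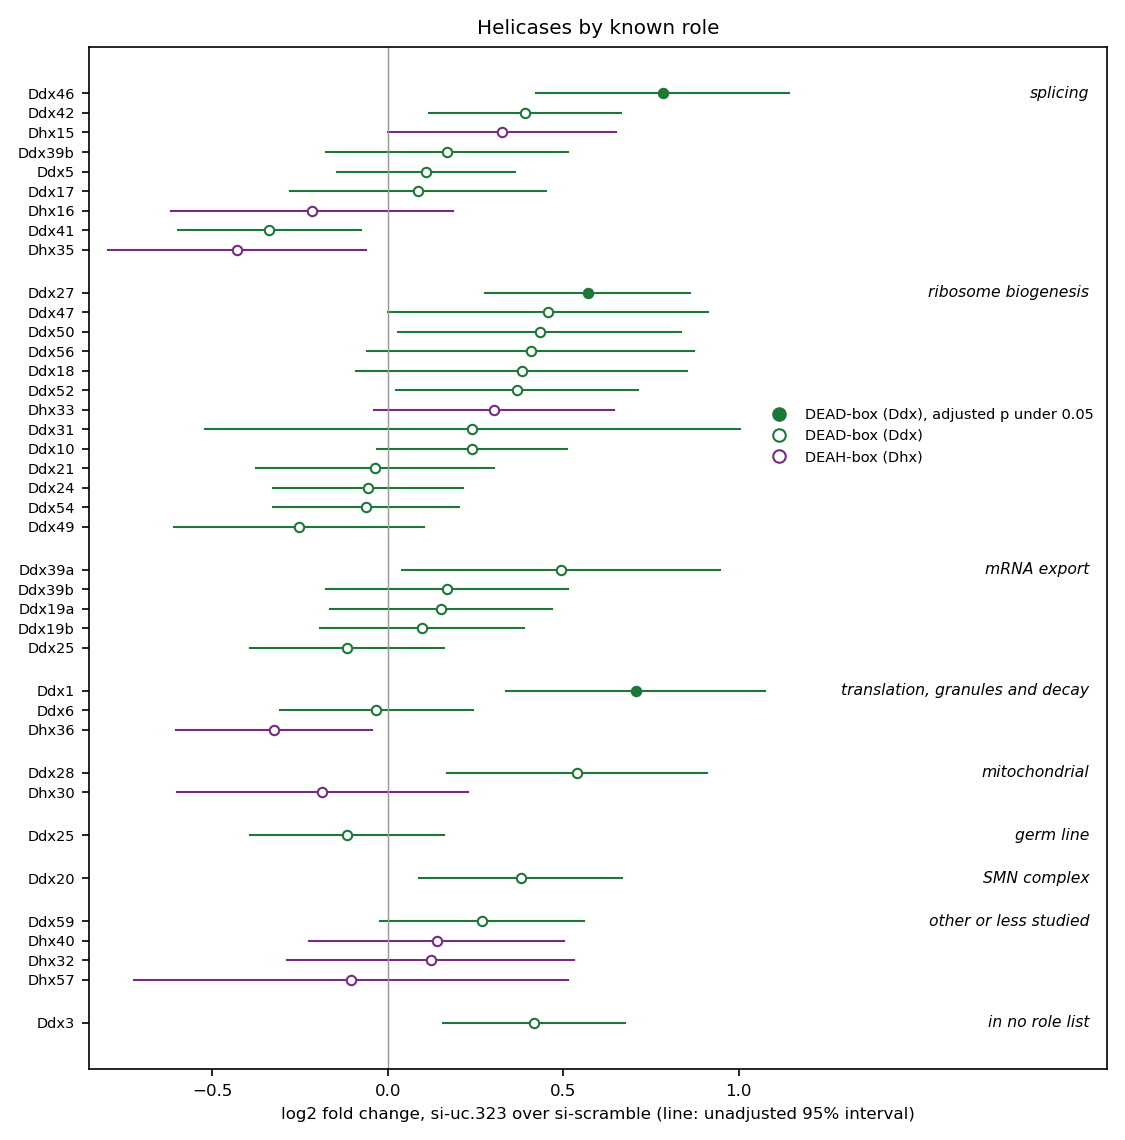
Log2 fold change of each helicase, si-uc.323 over si-scramble, with its unadjusted 95% interval (horizontal axis), arranged by known role (Ddx39b and Ddx25 stand in 2 lists); green marks are DEAD-box genes, purple marks DEAH-box genes, and filled marks have an adjusted p under 0.05. The filled marks are Ddx46, Ddx27 and Ddx1, and each role with over 1 member holds both positive and negative values.

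Ribosome biogenesis was the best represented role, with 13 measured helicases. Of these 1 was called, Ddx27, 9 were positive and 4 negative, and the median log2 fold change was 0.30. The median difference from the si-scramble mean was 0.25, 0.08 and 0.43 in si-uc.323 replicates 1, 2 and 3. Replicate 2 therefore lay closest to the controls for this group.

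Ddx47, the homologue of yeast Rrp3 in small-subunit processing, showed that spread: it read -2.71, -3.15 and -2.40 in si-uc.323, against -3.14, -3.30 and -3.19 in si-scramble. Replicate 2 fell inside the control range, and the log2 fold change of 0.46 ± 0.19 (SE) did not pass (adjusted p = 0.178, limma). It was 0.66 without replicate 2 (adjusted p = 0.0382), 0.28 without replicate 3 of si-uc.323 (0.330) and 0.26 with normexp (0.319, limma adjusted p throughout). Ddx18, the homologue of yeast Has1, had the same shape, with -3.20, -3.70 and -2.90 in si-uc.323 against -3.61, -3.70 and -3.63 in si-scramble (log2 fold change 0.38 ± 0.20). Ddx52, the homologue of yeast Rok1, differed in this respect, since its highest si-uc.323 value came from replicate 2: -1.75, -1.47 and -1.95, against -2.01, -2.13 and -2.13 in si-scramble, without overlap (log2 fold change 0.37 ± 0.15, adjusted p = 0.158, limma).

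The paralogues Ddx21 and Ddx50, both nucleolar, had different values. Ddx50 read -0.23, -0.74 and -0.27 in si-uc.323 against -0.73, -1.03 and -0.78 in si-scramble, with replicate 2 just inside the control range (log2 fold change 0.43 ± 0.17, adjusted p = 0.155, limma). Ddx21 read 2.58, 2.69 and 2.23 against 2.53, 2.49 and 2.58, with a log2 fold change of -0.04 (95% interval -0.37 to 0.30). The sign of Ddx21 turned under quantile normalization, with the authors' series values, with the slide block and without si-uc.323 replicate 3. Among the other members of this role, Ddx56 (0.41 ± 0.20), Dhx33 (0.30 ± 0.15), Ddx31 (0.24 ± 0.32) and Ddx10 (0.24 ± 0.12) had positive log2 fold changes, none of which passed. Ddx10 was the only one of these 4 whose groups did not overlap. Ddx24 (-0.06), Ddx54 (-0.06) and Ddx49 (-0.25 ± 0.15) were negative with overlapping groups.

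None of the 5 measured mRNA export helicases was called (1 with an unadjusted p under 0.05 by limma, and 4 positive values). Ddx39a, an export helicase paralogous to Ddx39b, read -2.04, -2.46 and -1.69 in si-uc.323 against -2.56, -2.60 and -2.50 in si-scramble. Replicate 2 lay just above the controls and the other two clearly above, giving a log2 fold change of 0.50 ± 0.19 (SE, adjusted p = 0.151, limma), which passed without replicate 2 (0.69, adjusted p = 0.0360) and was 0.31 without replicate 3 of si-uc.323 (adjusted p = 0.258). Ddx39b, which loads the export complex TREX and also acts in spliceosome assembly, read -2.0, -2.22 and -1.73 in si-uc.323 against -2.23, -2.13 and -2.10 in si-scramble, with overlap (log2 fold change 0.17 ± 0.15). Ddx19a (0.15) and Ddx19b (0.10), which release mRNA at the nuclear pore, had intervals that spanned 0, from -0.16 to 0.47 and from -0.19 to 0.39. Ddx25, a testicular helicase, was well above background on all arrays and had a log2 fold change of -0.12 ± 0.12 (adjusted p = 0.556, limma).

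Of the 3 helicases of translation, RNA granules and decay, Ddx1 alone passed. Dhx36, which unwinds G-quadruplexes, was lower on every si-uc.323 array: -1.25, -1.33 and -1.47, against -0.95, -1.16 and -0.98 in si-scramble. The log2 fold change of -0.32 ± 0.12 (SE) did not pass (adjusted p = 0.137, limma). Ddx6, a core protein of P-bodies that takes part in mRNA repression and promotes decapping, read 1.63, 1.49 and 1.77 in si-uc.323 against 1.71, 1.62 and 1.66 in si-scramble, with a 95% interval of -0.31 to 0.24. Its sign was positive with normexp background correction, quantile normalization and the authors' series values, and without si-uc.323 replicate 2. The gene that RefSeq names Ddx3, an autosomal locus with the synonym Ddx3yl, read -1.35, -1.14 and -1.19 against -1.70, -1.63 and -1.60 (log2 fold change 0.42 ± 0.11, adjusted p = 0.0680, limma). It may share hybridisation with its X- and Y-linked relatives, so the source of this signal is uncertain.

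Both mitochondrial helicases were measured, and neither passed. Ddx28, which assembles the large mitochondrial ribosomal subunit, read -3.68, -3.97 and -3.43 in si-uc.323 against -4.13, -4.33 and -4.25 in si-scramble, without overlap (log2 fold change 0.54 ± 0.16, 1.45-fold, adjusted p = 0.0855, limma). It was 0.68 and passed without si-uc.323 replicate 2 (adjusted p = 0.0338, limma), 0.41 without replicate 3 (0.136) and 0.22 with normexp background correction (0.309). Dhx30, a helicase of mitochondrial RNA granules, read 2.44, 2.76 and 2.14 against 2.72, 2.48 and 2.69, with a log2 fold change of -0.19 ± 0.18 and overlapping groups.

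Ddx20, the Gemin3 subunit of the SMN complex that assembles spliceosomal particles, read -1.0, -1.29 and -1.06 in si-uc.323 against -1.50, -1.58 and -1.42 in si-scramble, without overlap. The log2 fold change was 0.38 ± 0.12 (SE, adjusted p = 0.105, limma), and 0.47 without si-uc.323 replicate 2, where it passed (adjusted p = 0.0427). It was 0.32 without si-uc.323 replicate 1 (adjusted p = 0.192, limma) and 0.35 without replicate 3 (0.169). Of the less studied members, Ddx59 (0.27 ± 0.12) was higher on all si-uc.323 arrays without passing (adjusted p = 0.208, limma), while Dhx40 (0.14 ± 0.15) and Dhx32 (0.12 ± 0.17) overlapped the controls. Dhx57 was widely spread, at 0.20, 1.3 and 0.63 in si-uc.323 against 0.85, 0.92 and 0.68 in si-scramble. Its dimmer probe read -2.25, -2.83 and -1.81 against -2.38, -2.58 and -2.48, so that replicate 2 was the highest array for one probe and the lowest for the other. The log2 differences of the probes were -0.10 and 0.18.

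By family, the 28 DEAD-box genes had a median log2 fold change of 0.26, with 21 positive values, 3 calls and 11 genes wholly above the controls against 1 below. The 9 DEAH-box genes had a median of -0.10, with 4 positive values, no call (3 at an unadjusted p under 0.05 by limma, Dhx15 higher and Dhx35 and Dhx36 lower), 1 gene wholly above the controls and 2 below. Over all genes 6.14% were called, 20.1% lay wholly above the controls and 19% wholly below. At an unadjusted p under 0.05 by limma, 16.7% of all genes were higher and 13.3% lower. The DEAD-box median was positive on each si-uc.323 array (0.22, 0.10 and 0.40 in replicates 1, 2 and 3), and the DEAH-box median was -0.19, 0.12 and -0.24. The difference between the families was not tested.

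**Figure D4:**
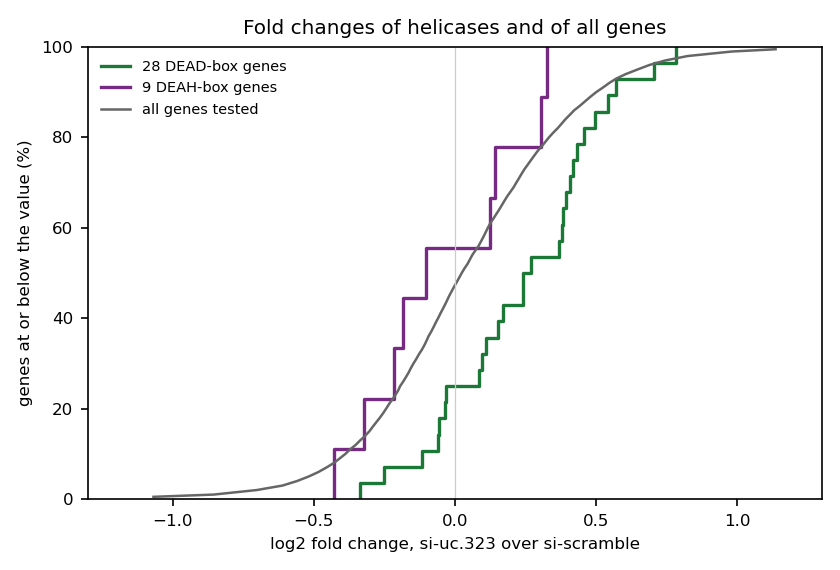
Cumulative share of genes (vertical axis, percent) at or below a log2 fold change of si-uc.323 over si-scramble (horizontal axis) for the 28 DEAD-box genes (green), the 9 DEAH-box genes (purple) and all genes tested (grey). The medians are 0.26, -0.10 and 0.02.

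The si-uc.323 arrays differed in the size of these values. The median difference of the 37 helicases from the si-scramble mean was 0.15, 0.10 and 0.35 in replicates 1, 2 and 3, against -0.0018, -0.0011 and 0.10 over all genes. Among the 25 helicases with a positive fold change, replicate 2 was the lowest si-uc.323 array in 15, replicate 1 in 7 and replicate 3 in 3, and over all genes with a positive fold change replicate 2 was lowest in 55.1%. The median SD of a helicase was 0.21 over the si-uc.323 arrays and 0.08 over the si-scramble arrays, against 0.21 and 0.095 over all genes. On slide 1, where slide and brightness were shared, si-uc.323 replicate 1 lay above all si-scramble arrays in 21 helicases and below all in 7, where 38.5% and 38.4% of all genes did so.

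Other helicases and partner proteins were compared as lists, beside the 6.14% called over all genes. Among 11 tested helicases outside the family names (of 24 listed, among them the DNA helicases Recql, which was tested, and Fancm and Hfm1, which were not), 1 was called: Eif4a1, the DEAD-box helicase of translation initiation, read 1.74, 1.55 and 1.81 in si-uc.323 against 1.15, 1.05 and 1.1 in si-scramble. Its groups did not overlap, and its log2 fold change was 0.60 ± 0.11 (SE, adjusted p = 0.0362, limma). The paralogue Eif4a2 (-0.15 ± 0.13) and Eif4a3 (-0.02 ± 0.12), the helicase of the exon junction complex, did not pass, and the list had 6 positive and 5 negative values with a median of 0.04.

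Among 27 tested protein partners of DEAD-box helicases (of 34 listed) 1 was called (3.70%, against 6.14% of all genes). This was Thoc3, a subunit of the complex that works with Ddx39b in mRNA export. It read -0.79, -0.86 and -0.78 in si-uc.323 against -1.36, -1.37 and -1.31 in si-scramble, a log2 fold change of 0.54 ± 0.10 (SE, adjusted p = 0.0346, limma). The list had 19 positive and 8 negative values and a median of 0.27, against 0.02 over all genes. In 13 of its genes all si-uc.323 values lay above the controls and in 1 below, against 20.1% and 19% of all genes. None of the 15 tested G-patch cofactors (of 19 listed) was called. At an unadjusted p under 0.05 by limma 1 was higher and 0 lower, against 16.7% and 13.3% of all genes. The list had 8 positive and 7 negative values and a median of 0.16. Its median difference from the si-scramble mean was -0.11, 0.10 and 0.08 in si-uc.323 replicates 1, 2 and 3. The calls of Eif4a1 and Thoc3 were lost when any 1 si-scramble array was left out (adjusted p 0.134 to 0.177 for Eif4a1 and 0.140 to 0.172 for Thoc3, limma), when si-uc.323 replicate 1 or 3 was, with a median shift (0.0531 and 0.0655), with the replicate block (0.0620 and 0.0726), with the slide block (0.213 and 0.217), on slide 1 alone (0.0686 and 0.0724) and without the background filter (0.113 and 0.109). Eif4a1 also did not pass with the mean over its probes (0.43, adjusted p = 0.0553, limma). Both kept a positive fold change under each of these settings.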

How the data were processed

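Total RNA was amplified, labelled with Cy3 and hybridised, per the labels' protocols. The scanner files hold the spot intensity deposited by the authors with Agilent's Feature Extraction software (version 11.0.1.1 by the submitters' processing notes), as processed signals per the file headers. The deposited series table holds log2 values with a median of 6.52 in every column; how they were centred is not stated. Its columns correlated at 0.995 to 0.999 with the scanner values. Flagged and control spots were left out, log2 values were shifted by the array's 75th percentile, and spots were averaged per probe. A probe was kept if 1 group or both had it well above background on every array. Names came from RefSeq (assembly GRCr8) by unversioned accession, for 18005 of 30367 probes. The 19920 features, 11580 of them named genes, were fitted with limma 3.58.1 in R 4.3.3 without covariates and Benjamini-Hochberg adjusted. The fit was also run on simulated data with equal spread in both groups and no slide difference. That run does not cover the unequal spread and the split of slides in these arrays. Slides were inferred from scan identifiers. Figures used matplotlib 3.10.9.

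Members and lists were chosen with earlier results of these data known. Named by rule were called members, the 2 largest changes per role, a set of well-known members, members whose probes disagree and called partners; the other members were added after their values were seen. Cultures are described as independent experiments, and p-values measure the spread between their arrays. That spread is not of cultures alone, since si-uc.323 replicates 2 and 3 were on slide 2 and all si-scramble arrays on slide 1. The main fit holds no slide term. Alternatives were normexp (offset 50, on median signals, since the files hold no mean), no background filter, quantile normalization, the authors' series values, an equal-median shift, the probe mean, replicate and slide blocks, slide 1 alone and leaving out each array. Gene symbols absent from the RefSeq match, such as Ddx3x, Dhx9 and Ddx11, were not analysed here. One marker is not reported here.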

Additional observations from a re-analysis of the deposited data

How the results depend on the processing

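The number of helicases called, 3, was 3 with normexp, quantile normalization and the series values, 2 with a median shift and with the probe mean, and 0 without the background filter, with the replicate block, with the slide block and on slide 1 alone (limma; 10, 13, 4 and 15 at an unadjusted p under 0.05). Leaving out arrays gave 0 to 11. Over all genes the calls, 711, numbered 1088 with quantile normalization, 0 without the filter, 3 with the slide block, 0 on slide 1 alone and 0 to 1859 when arrays were left out (3110, 1769 and 3639 at an unadjusted p under 0.05 without the filter, with the slide block and on slide 1). The block on replicate number cannot alter a fold change in this balanced design. It gave adjusted p-values of 0.0519 for Ddx46, 0.0554 for Ddx1 and 0.0788 for Ddx27 (limma). It lowered the count of all genes called to 404, against 711 (3232 at an unadjusted p under 0.05). Deviations of same-numbered arrays correlated at 0.205, 0.390 and -0.116, and those of differently numbered arrays at -0.560 to 0.477. With 3 arrays per group, these values cannot settle whether the numbers pair the arrays. The helicase median, 0.17, ranged from 0.052 (normexp) to 0.17 over the other settings and from 0.18 to 0.25 when arrays were left out. A median shift moved the median of all genes to -0.08, against 0.02, and the share of calls that were higher to 35.6%, against 53%; it was 42.6% with normexp, 41.8% with quantile normalization and 41.4% with the series values. The helicase median exceeded that of all genes by 0.14 in the values as reported, a gap that a median shift cannot alter, and by 0.12 with normexp. Fold changes near 0 turned sign. Ddx17 was -0.018 with quantile normalization and with the median shift, -0.025 with the series values and -0.066 with the slide block and on slide 1 alone. Ddx21 was 0.057 with quantile normalization, 0.041 with the series values and 0.048 with the slide block and on slide 1. Ddx6 was 0.043 with normexp, 0.052 with quantile normalization and 0.022 with the series values, and Dhx57 was 0.040 with the probe mean. Without single arrays Ddx17 ranged from -0.046 to 0.18, Ddx21 from -0.13 to 0.10, Ddx6 from -0.10 to 0.040 and Dhx57 from -0.40 to 0.15. The causes were not tested. The slide block rests on si-uc.323 replicate 1 alone, and the number of arrays limits precision.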
